A study of Mus musculus with 4 samples.

Results

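The regions described here are the accessible chromatin regions assigned to 10 genes of the NF-kB pathway, namely the 5 subunit genes Nfkb1, Nfkb2, Rel, Rela and Relb, the 4 genes of the IkB family Nfkbia, Nfkbie, Nfkbiz and Bcl3, and Tnfaip3, which encodes the ubiquitin-editing enzyme A20. A region was formed wherever ATAC-seq peaks of the 4 libraries overlapped by at least 1 bp, and it belonged to a gene when its highest peak carried that gene's name, which is the gene of the nearest transcription start site (TSS). These genes held 96 of the 60710 regions. ATAC-seq maps open chromatin by the insertion of sequencing adapters with the Tn5 transposase. The cells were wild-type macrophages grown from the bone marrow of C57BL/6 mice aged 8 to 12 weeks, cultured for 6 days in L929 supernatant, a source of MCSF. The control libraries (n = 2) came from cells left without IL-4, and the IL-4 libraries (n = 2) from cells given 20 ng/ml IL-4 for 1 h. The study asked how the IL-4-activated factor STAT6 represses transcription in macrophages, with ATAC-seq among its assays.

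NF-kB is a family of dimeric transcription factors that drives inflammatory gene expression in macrophages. In unstimulated cells the dimers are held in the cytoplasm by IkB proteins, whose degradation releases them, and the genes for several IkB proteins and for A20 are themselves NF-kB targets, which closes negative feedback loops. IL-4 acts mainly through another factor, STAT6, whose dimers bind the palindrome TTCNNNNGAA. Most other STAT dimers favour the shorter spacing, TTCNNNGAA.

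The sequences below were chosen among regions that hold a STAT6-type palindrome, so they do not stand for all regions that differ between the groups. The first 4 are regions with a peak in both IL-4 libraries and in neither control library that hold a STAT6-type palindrome, TTCNNNNGAA, in capitals. The fifth, which also holds it, had a peak in all 4 libraries and the lowest p of the NF-kB regions. Each run is a 300-base window centred on the region, read from GRCm38.p6 (the assembly behind mm10) on the plus strand.
Nfkb1 intron 1, chr3:135683442-135683741: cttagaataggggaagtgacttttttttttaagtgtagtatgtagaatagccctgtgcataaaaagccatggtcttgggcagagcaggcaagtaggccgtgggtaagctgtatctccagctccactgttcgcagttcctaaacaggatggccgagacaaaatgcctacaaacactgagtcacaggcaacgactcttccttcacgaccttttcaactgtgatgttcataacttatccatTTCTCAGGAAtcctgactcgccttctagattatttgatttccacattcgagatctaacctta
Nfkb1 intron 1, chr3:135688998-135689297: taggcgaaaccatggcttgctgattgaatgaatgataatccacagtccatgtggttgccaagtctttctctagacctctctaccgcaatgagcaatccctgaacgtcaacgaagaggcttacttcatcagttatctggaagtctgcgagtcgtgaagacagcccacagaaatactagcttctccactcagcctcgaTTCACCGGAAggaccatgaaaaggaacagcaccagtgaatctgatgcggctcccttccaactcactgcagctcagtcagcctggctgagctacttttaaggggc
Tnfaip3 intron 1, chr10:19008568-19008867: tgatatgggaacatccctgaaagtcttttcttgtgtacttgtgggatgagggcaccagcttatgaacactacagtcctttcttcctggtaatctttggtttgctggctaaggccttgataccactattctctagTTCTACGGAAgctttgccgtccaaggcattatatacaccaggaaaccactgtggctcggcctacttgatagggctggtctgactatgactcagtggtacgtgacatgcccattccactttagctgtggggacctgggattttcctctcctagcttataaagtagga
Rel upstream intergenic, chr11:23820952-23821251: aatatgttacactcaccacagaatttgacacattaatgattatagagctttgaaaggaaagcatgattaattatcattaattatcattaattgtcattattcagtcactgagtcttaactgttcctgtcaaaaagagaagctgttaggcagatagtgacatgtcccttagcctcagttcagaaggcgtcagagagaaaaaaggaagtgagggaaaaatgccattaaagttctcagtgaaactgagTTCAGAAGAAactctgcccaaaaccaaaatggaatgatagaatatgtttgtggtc
Nfkb1 intron 5, chr3:135658674-135658973: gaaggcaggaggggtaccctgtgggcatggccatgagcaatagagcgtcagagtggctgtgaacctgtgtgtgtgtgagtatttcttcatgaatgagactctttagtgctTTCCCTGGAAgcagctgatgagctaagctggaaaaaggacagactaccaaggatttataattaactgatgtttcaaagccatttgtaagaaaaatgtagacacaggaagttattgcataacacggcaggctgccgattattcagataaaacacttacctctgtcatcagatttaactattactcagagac

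Promoters of 3 genes are shown for the kB element, the NF-kB site, which is in capitals. Each run is the 250 bases before the TSS in RefSeq on GRCm38.p6, on the gene's own strand, which is the minus strand for all 3. The capitals of Rel cover a pair of overlapping matches.
Nfkbia promoter, chr12:55492648-55492897: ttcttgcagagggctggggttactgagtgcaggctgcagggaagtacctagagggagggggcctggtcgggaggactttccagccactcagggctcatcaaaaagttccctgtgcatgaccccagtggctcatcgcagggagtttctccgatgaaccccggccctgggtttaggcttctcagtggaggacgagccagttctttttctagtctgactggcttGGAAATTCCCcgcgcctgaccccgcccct
Tnfaip3 promoter, chr10:19015411-19015660: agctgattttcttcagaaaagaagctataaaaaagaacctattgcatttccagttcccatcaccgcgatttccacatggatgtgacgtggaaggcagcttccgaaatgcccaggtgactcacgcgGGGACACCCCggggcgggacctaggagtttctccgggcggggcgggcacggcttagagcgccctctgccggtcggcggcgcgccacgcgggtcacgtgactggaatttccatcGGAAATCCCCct
Rel promoter, chr11:23770970-23771219: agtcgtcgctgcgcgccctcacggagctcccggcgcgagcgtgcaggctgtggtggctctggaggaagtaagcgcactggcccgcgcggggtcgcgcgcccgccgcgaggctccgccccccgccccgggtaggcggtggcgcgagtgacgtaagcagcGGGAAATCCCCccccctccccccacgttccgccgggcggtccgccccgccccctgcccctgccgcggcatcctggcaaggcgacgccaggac

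Peak height is the deposited peak score, read as −log10 of the q-value, so it states how surely a peak rose over its library's local background and it grows with sequencing depth. Depth is unknown, because the files hold no read counts. The IL-4 library of replicate 2 had the fewest peaks, 39462 against 41885 to 45250 in the others, and the lowest median height, 6.41 against 7.46 to 8.04. Of 10 macrophage markers, 6 had a region within 1 kb of their TSS in all 4 libraries, whereas Csf1r, Adgre1 and Spi1 had no peak there in any library. The summed height at the macrophage markers was 86.6 to 114 in the control libraries and 84.9 to 90.2 in the IL-4 libraries. The 4 B cell, 4 T cell and 3 erythroid markers had no such peak in any library. S100a8 was the open marker among 5 of neutrophils and progenitors, with summed heights of 6.18 to 6.63 in the control and 2.49 to 6.62 in the IL-4 libraries, and Pdgfra among 4 of fibroblasts had a peak in the control library of replicate 1. The part of other cells in the heights was not tested. In a mixed cell population, fewer cells with an open region and less accessibility per cell cannot be told apart.

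Most regions of the NF-kB genes were found with and without IL-4: 62 of 96 (64.6%) had a peak in at least 1 library of each group, beside 63.6% of all regions. The control libraries held 71 and 69 peaks of these genes and the IL-4 libraries 75 and 66, or 0.157% and 0.165% against 0.179% and 0.167% of all peaks. The means were 70.0 ± 1.41 peaks in the control and 70.5 ± 6.36 in the IL-4 group (SD, n = 2 each), and the groups overlapped (two-sided exact permutation test, p = 1.0, where 4 libraries allow no p below 0.3333). Of the 96 regions, 42 (43.8%) had a peak in all 4 libraries, beside 41.9% of all regions. A further 15 (15.6%) had a peak in 3 libraries, 14 (14.6%) in 2 and 25 (26.0%) in 1, beside 13.3%, 15.2% and 29.6% of all regions. The missing library of the 15 was IL-4 replicate 2 in 6 cases, control replicate 2 in 4, IL-4 replicate 1 in 3 and control replicate 1 in 2. Heights of the 25 single-library regions ran from 2.29 to 10.12 with a median of 4.06.

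A region is called IL-4-only, or control-only, if both libraries of that group and none of the other had a peak in it. There were 6 IL-4-only regions at these genes (6.25%), against 2.53% of all regions, and 3 control-only regions (3.12%), against 4.33% of all regions. Nfkb1 held 2 of the IL-4-only regions, and Nfkb2, Rel, Nfkbiz and Tnfaip3 held 1 each. Nfkb1, Rel and Nfkbiz held 1 control-only region each. Rela, Relb, Nfkbia, Nfkbie and Bcl3 held neither kind. Nfkbie was the gene with no region in all 4 libraries, and Bcl3 the gene with all of its 4 regions in all 4.

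**Figure D1:**
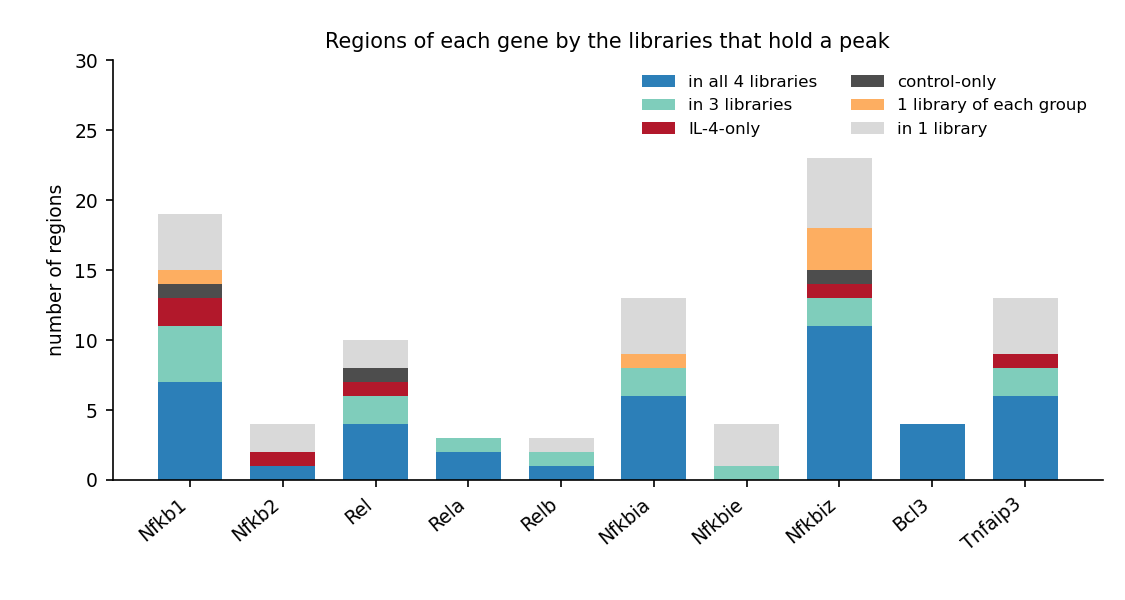
Number of regions of each gene (vertical axis) by the libraries that hold a peak, as stacked bars that start at 0. Nfkbiz had 23 regions and Nfkb1 19, and red marks the 6 IL-4-only regions.

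Nfkb1 encodes p105, the precursor of the p50 subunit, and lies on the minus strand at chr3:135584655-135691969. It held 19 regions, 15 of them inside the gene or at its TSS. The strongest IL-4-only region of the set was in intron 1 at chr3:135683419-135683764, +7939 bp from the TSS, where positive distances lie downstream. Its peak heights were 26.00 and 13.82 in the IL-4 libraries of replicates 1 and 2, and no control library had a peak. The other IL-4-only region of intron 1, at chr3:135689001-135689294 and +2379 bp, had heights of 9.76 and 16.55 in the IL-4 libraries. Both regions exceeded the promoter of the same gene, in height, in every IL-4 library. When the 1534 IL-4-only regions of the genome were ranked by the lower of their 2 heights, the region at +7939 bp was number 6 and that at +2379 bp was number 34.

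Heights differed in the same direction at another place of the gene. In intron 5, at chr3:135658687-135658959 and +32749 bp, heights were 3.17 and 3.78 in the control and 9.84 and 6.12 in the IL-4 libraries. Both IL-4 values lay above both control values, and the log2 change of normalised height was 1.36 ± 0.54 (SE), with an adjusted p of 0.473 by limma over the 25442 regions that all 4 libraries shared. Its log2 change stayed between 1.12 and 1.79 and its adjusted p between 0.421 and 0.808 in 10 alternatives. The minimum score of 5 in all 4 libraries removed the region, since both control heights were lower. Its mean height was low, at percentile 9.06 of the shared regions. Upstream, the region at −28611 bp, named after its values were seen, had heights of 4.38 and 2.66 in the control and 6.62 and 7.86 in the IL-4 libraries. The groups did not overlap there either, and the log2 change was 1.26 ± 0.55 (SE; limma adjusted p = 0.539). Its mean height was low too, at percentile 6.68.

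The Nfkb1 promoter, at chr3:135691364-135691667, was low in both groups, with heights of 4.85 and 7.81 in the control and 5.07 and 5.30 in the IL-4 libraries. Its log2 change was −0.02 ± 0.55 (SE; limma adjusted p = 0.997), an estimate too wide to exclude a change in either direction. Beyond intron 5 the 3 regions with peaks in all 4 libraries went both ways. The log2 change was 0.30 ± 0.50 (SE) at +83211 bp and 0.08 ± 0.45 (SE) at +84177 bp. The third, in intron 17 at chr3:135596894-135597309 (+94383 bp), had the highest mean of the gene away from the promoter when an absent peak counts as 0, with heights of 13.83 and 15.49 in the control and 10.12 and 6.89 in the IL-4 libraries. The groups did not overlap, and the log2 change was −0.56 ± 0.42 (SE; limma adjusted p = 0.775). The control-only region of Nfkb1 was in intron 8 at chr3:135616846-135616976 (+74640 bp), with heights of 5.65 and 3.78 in the control libraries.

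**Figure D2:**
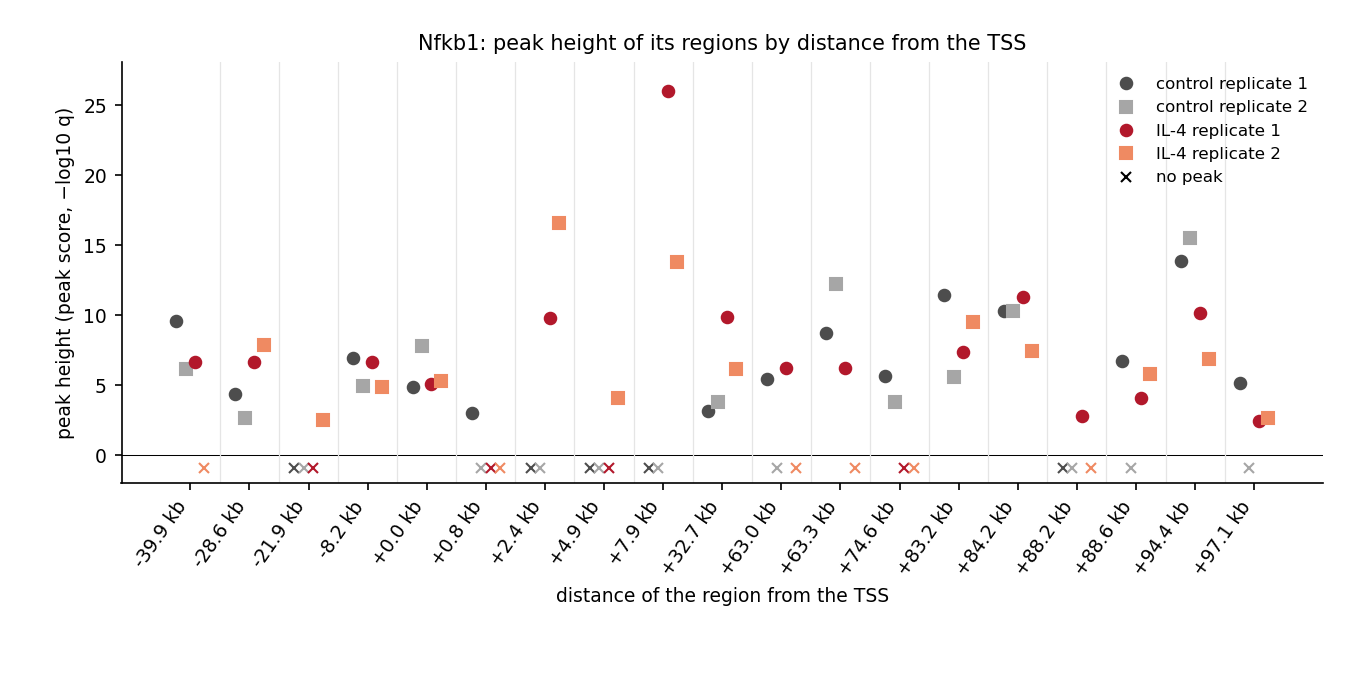
Peak height (vertical axis, −log10 q) in each library at the 19 Nfkb1 regions, ordered by distance from the TSS in kb and not drawn to genomic scale; crosses below 0 mark libraries with no peak. At +2379 and +7939 bp both IL-4 libraries had peaks and both control libraries had none.

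Nfkb2 encodes p100, the precursor of p52 in the non-canonical pathway. All 4 of its regions lay within 1 kb of an annotated TSS. The main promoter region, chr19:46304260-46304763, had heights of 12.19 and 7.15 in the control and 13.28 and 11.15 in the IL-4 libraries, with a log2 change of 0.61 ± 0.43 (SE; limma adjusted p = 0.762) that became 0.33 without control replicate 2. The raw heights of the groups overlapped, while the normalised heights did not. The IL-4-only region, chr19:46304767-46304944, had heights of 6.71 and 3.95 and was 3 bp from the main region. The other 2 regions each had a peak in control replicate 2 alone, of 10.12 and 6.21.

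Rel encodes c-Rel, a subunit abundant in blood cells. Its promoter and first exon, chr11:23770642-23771505, had heights of 13.52 and 17.93 in the control and 10.78 and 8.26 in the IL-4 libraries. Both IL-4 heights were lower than both control heights (log2 change −0.48 ± 0.40 SE, limma adjusted p = 0.805), and the log2 change was −0.80 without control replicate 1 and −0.18 without control replicate 2. The control-only region, chr11:23770278-23770401 in intron 1, had heights of 6.77 and 6.32 and was 240 bp from that promoter region. In the same intron, chr11:23762663-23762954 (+8162 bp) went the other way, with 4.38 and 7.46 in the control and 9.35 and 7.99 in the IL-4 libraries (log2 change 0.83 ± 0.52 SE, limma adjusted p = 0.705). That log2 change was 0.36 without control replicate 1 and 1.29 without control replicate 2. The IL-4-only region was intergenic at −50162 bp, chr11:23820965-23821238, and was weak, with heights of 3.81 and 4.48.

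Rela encodes p65, the transactivating partner in the commonest NF-kB dimer. Heights at its promoter, chr19:5637231-5637884, were 6.45 and 12.02 in the control and 11.31 and 16.66 in the IL-4 libraries. The groups overlapped, since 1 control height lay above 1 IL-4 height, and the log2 change was 0.87 ± 0.44 (SE; limma adjusted p = 0.613). It was 0.32 without control replicate 1, 1.42 without control replicate 2 and 0.45 without IL-4 replicate 2. The region at the 3′ end of the gene, +11528 bp, had heights of 14.81 and 14.56 in the control libraries and 13.13 in IL-4 replicate 1, with no peak in IL-4 replicate 2. Relb, which encodes the subunit that pairs with p52, had its strongest region in intron 1 at chr7:19628424-19628988 (+744 bp). Heights there were 24.52 and 16.13 in the control and 20.71 and 17.95 in the IL-4 libraries, which overlapped (log2 change 0.14 ± 0.29 SE, limma adjusted p = 0.941). The next, in intron 3 at +10223 bp, had heights of 6.74 in control replicate 1 and 4.11 and 5.05 in the IL-4 libraries.

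Nfkbia encodes IkBα, the main cytoplasmic inhibitor. Its promoter, chr12:55492439-55492887, had heights of 11.82 and 13.46 in the control libraries and 9.94 in IL-4 replicate 1, and no peak in IL-4 replicate 2, the library with the lowest heights. An intragenic region at +669 bp lacked a peak in the other IL-4 library, with 11.57 and 11.41 in the control libraries and 5.70 in IL-4 replicate 2. Each of the IL-4 heights at these places was below the control heights. The main fit took only regions with a peak in all 4 libraries, so it gave no change here. Most of the 13 Nfkbia regions lay downstream of the gene, up to +45404 bp. The deposited annotation put 9 of them in introns of a non-coding transcript, at a place where the RefSeq annotation of GRCm38.p6 listed no gene. The strongest of them, chr12:55466290-55466640 (+26159 bp), had heights of 17.76 and 17.04 in the control and 17.24 and 12.14 in the IL-4 libraries (log2 change −0.06 ± 0.33 SE, limma adjusted p = 0.983). Its neighbour 207 bp away, at +25637 bp, had 9.28 and 9.68 in the control and 11.79 and 13.19 in the IL-4 libraries, without overlap (log2 change 0.63 ± 0.43 SE, limma adjusted p = 0.742). Without IL-4 replicate 2 this log2 change was 0.39, and with peaks within 500 bp merged both places formed 1 region with a log2 change of 0.001.

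Nfkbie encodes IkBε, another cytoplasmic inhibitor. Its promoter, chr17:45555549-45555811, had heights of 10.77 and 8.57 in the control libraries and 3.25 in IL-4 replicate 1, and no peak in IL-4 replicate 2. No region of Nfkbie had a peak in IL-4 replicate 2. The strongest region outside the promoter, in intron 1 at +1588 bp, had a height of 3.32 in IL-4 replicate 1 alone.

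Nfkbiz encodes IkBζ, a nuclear IkB protein that acts as a cofactor at inflammatory genes. Its values differed by position. At the promoter of the shorter transcript, chr16:55821952-55822633, heights were 20.29 and 19.76 in the control and 28.05 and 26.40 in the IL-4 libraries. The replicates were close and the groups well apart, with a log2 change of 0.60 ± 0.26 (SE; unadjusted p = 0.0267, limma adjusted p = 0.543, and 0.42 to 0.808 in the alternatives). Both regions at the upstream promoter that had peaks in all 4 libraries leaned the same way. At −295 bp heights were 8.80 and 7.05 in the control and 9.67 and 9.23 in the IL-4 libraries (log2 change 0.51 ± 0.48 SE, limma adjusted p = 0.838). At −706 bp they were 4.58 and 3.82 against 8.34 and 5.51 (log2 change 0.90 ± 0.54 SE, limma adjusted p = 0.688).

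Downstream of Nfkbiz, 6 of the 7 intergenic regions beyond 50 kb with peaks in all 4 libraries had a negative log2 change. The lowest unadjusted p was at chr16:55698445-55698939 (+123446 bp), where heights were 28.38 and 16.83 in the control and 13.08 and 8.95 in the IL-4 libraries. Both IL-4 heights were below both control heights (log2 change −0.81 ± 0.34 SE, limma adjusted p = 0.522; log2 change −0.51 without control replicate 1). The tallest, chr16:55555226-55555525 (+266747 bp), had 20.36 and 33.84 in the control and 25.53 and 14.37 in the IL-4 libraries, which overlapped (log2 change −0.27 ± 0.28 SE, limma adjusted p = 0.862). The control-only region, chr16:55627645-55627768 (+194432 bp), had heights of 5.91 and 4.48. The IL-4-only region, chr16:55795841-55795971 (+26224 bp), had heights of 4.51 and 3.55 and was 51 bp from a region with peaks in 3 libraries. Regions this far out are tied to Nfkbiz only by its TSS being the nearest.

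Bcl3 encodes a nuclear IkB protein that binds p50 and p52 homodimers. Its 4 regions had log2 changes from −0.46 to −0.06, with no separation of the groups on normalised heights, although the raw heights at −1519 bp did not overlap. At −8203 bp, chr7:19830773-19831197, heights were 29.68 and 20.59 in the control and 15.74 and 22.15 in the IL-4 libraries (log2 change −0.25 ± 0.28 SE, limma adjusted p = 0.878). At −1519 bp, chr7:19824142-19824482, they were 12.82 and 21.29 against 11.70 and 8.99 (log2 change −0.46 ± 0.39 SE, limma adjusted p = 0.811). The promoter at −880 bp, chr7:19823511-19823782, had 11.70 and 6.21 against 10.59 and 4.70 (log2 change −0.06 ± 0.51 SE, limma adjusted p = 0.989). The sign at −8203, −1519 and −880 bp depended on which libraries were kept, and turned positive when a certain library was left out.

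Tnfaip3 encodes A20, which takes apart the ubiquitin chains that activate the IkB kinase. Its promoter, chr10:19015190-19015682, had heights of 13.36 and 15.25 in the control and 11.93 and 6.34 in the IL-4 libraries, without overlap (log2 change −0.48 ± 0.42 SE, limma adjusted p = 0.82). The log2 change was −0.19 without IL-4 replicate 2 and −0.29 without control replicate 2. The IL-4-only region in intron 1, chr10:19008540-19008895 (+3278 bp), had heights of 6.30 and 6.51. The region beside it at +2395 bp had 7.55 and 4.96 in the control and 9.74 and 7.22 in the IL-4 libraries. Raw heights of the groups overlapped there, while normalised heights were higher in both IL-4 libraries (log2 change 0.69 ± 0.51 SE, limma adjusted p = 0.774). Away from the gene, the strongest region, chr10:18943296-18943809 (+68392 bp), had 14.67 and 18.64 in the control and 9.12 and 7.46 in the IL-4 libraries. Both IL-4 heights were lower than both control heights (log2 change −0.78 ± 0.41 SE, limma adjusted p = 0.63, log2 change −0.51 without control replicate 2). Upstream, the region at −28618 bp had the lowest log2 change of all the NF-kB regions fitted. Heights there were 14.45 and 8.97 in the control and 5.47 and 4.89 in the IL-4 libraries, without overlap (log2 change −0.90 ± 0.50 SE, limma adjusted p = 0.652).

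**Figure D3:**
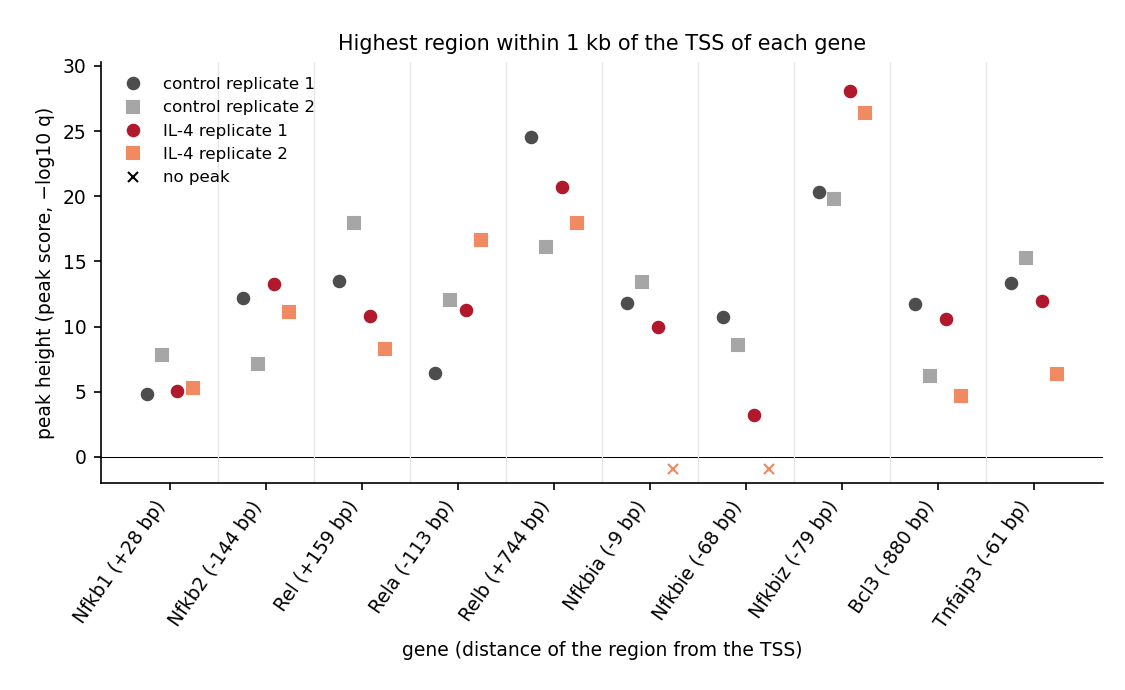
Peak height (vertical axis, −log10 q) in each library at the highest region within 1 kb of the TSS of each gene; crosses below 0 mark a library with no peak. At Nfkbiz both IL-4 libraries (28.05 and 26.40) stood above both control libraries (20.29 and 19.76), and at Nfkbia and Nfkbie the IL-4 library of replicate 2 had no peak.

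None of these 42 widely shared regions passed the adjusted threshold of 0.05 in limma in either direction, beside 0.0157% of all regions tested that were called higher and 0.00786% that were called lower. At an unadjusted p under 0.05 there were 3 higher (7.14%, against 4.12% of all regions tested) and 1 lower (2.38%, against 4.15%). These were the Nfkb1 regions at +32749 and −28611 bp and the Nfkbiz promoter at −79 bp on the higher side, and the Nfkbiz region at +123446 bp on the lower side. On normalised heights the groups did not overlap in 11 regions with higher IL-4 values (26.2%, against 19.2% of all regions tested) and in 9 with lower ones (21.4%, against 18.6%). The median log2 change was 0.08 over the 42 regions, with an SD of 0.57 over regions, and −0.001 over all regions, with an SD of 0.50. Replicates differed in log2 height by a median of 0.46 between the control libraries and 0.26 between the IL-4 libraries, and the change with IL-4 had a median size of 0.47. Over all regions tested these 3 values were 0.38, 0.39 and 0.31. A change is a difference between means of 2 libraries, and a replicate difference is one between single libraries. Their sizes are therefore not directly comparable.

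The subunit genes and the inhibitors were described apart. Of 15 shared subunit regions, 12 had a positive and 3 a negative log2 change, with a median of 0.28, beside 49.9% positive among all regions tested. Nfkb1 held 7 of the 15 and Rel 4, and all came from the same 4 libraries, so they are not independent. The 27 regions of the IkB family and Tnfaip3 were divided into 12 positive and 15 negative ones, with a median of −0.06. With median centring in place of quantile normalisation the medians were 0.28 and −0.03, and without control replicate 1 that of the inhibitors was 0.07. With scores of at least 5, 5 of 7 subunit regions were positive with a median of 0.14, and without control replicate 2 or either IL-4 library 10 of 15 were. With peaks within 500 bp merged, the median of the inhibitors was −0.26. The values were also described by distance from the TSS. Within 50 kb, 20 of 30 regions (66.7%) had a positive log2 change, with a median of 0.38, as did 10213 of all 20412 regions at that distance. Beyond 50 kb, 8 of 12 had a negative log2 change, with a median of −0.28, beside 49.5% positive among all such regions. Those 12 regions belonged to 4 genes, and Nfkbiz held 7 of them, 6 with a negative log2 change. The 12 shared the same 4 libraries, so they are not independent. The values beyond 50 kb thus describe mainly the Nfkbiz locus. The medians ran from 0.24 to 0.34 within and from −0.51 to −0.17 beyond 50 kb when 1 library was left out.

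**Figure D4:**
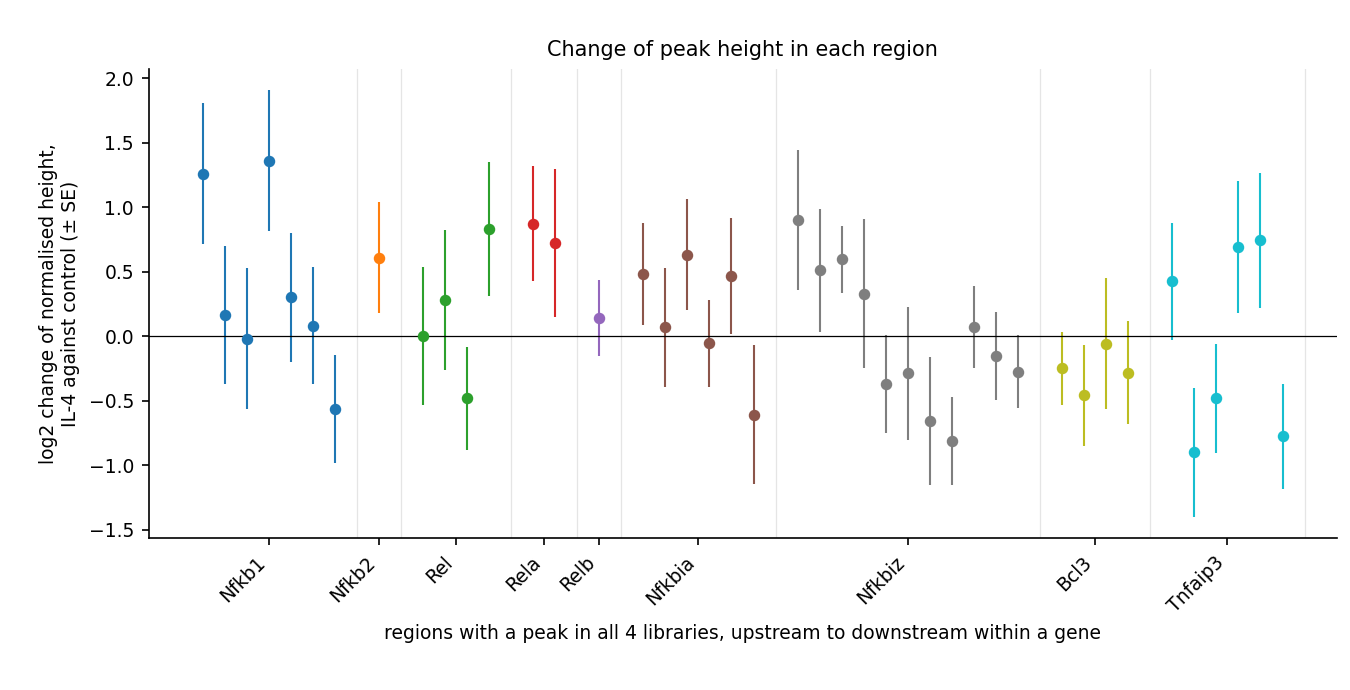
Log2 change of normalised peak height, IL-4 against control (vertical axis, points with SE bars), at the 42 regions that all 4 libraries shared, ordered from upstream to downstream within each gene. Nfkb1 reached 1.36 at +32749 bp, the 4 Bcl3 regions sat below 0, and Nfkbiz was positive at its promoters and below 0 at 6 of its 7 regions beyond 50 kb.

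**Figure D5:**
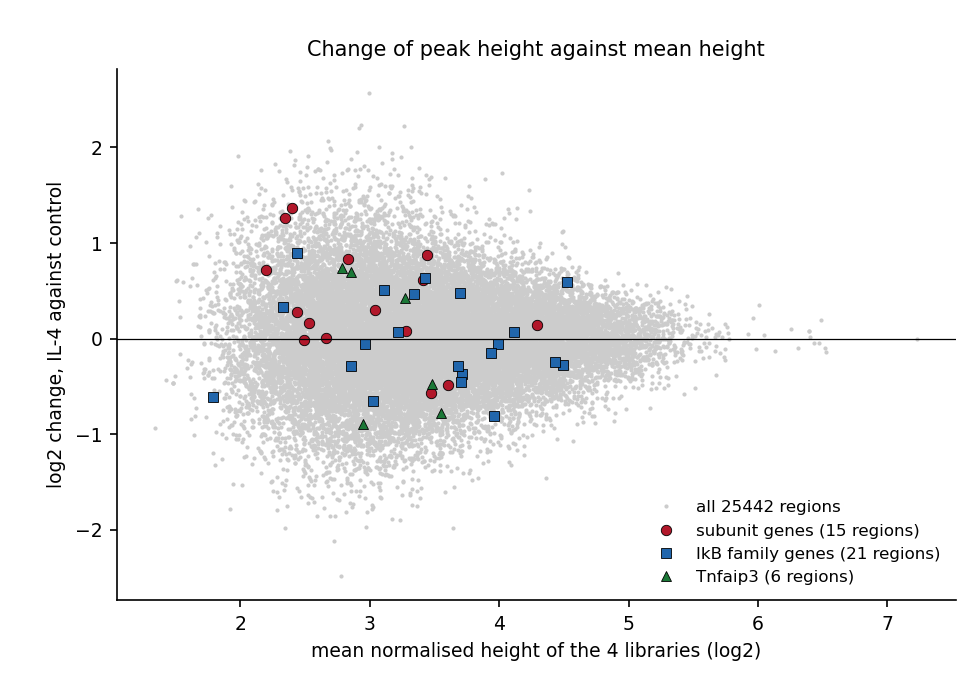
Log2 change of each region (vertical axis) against its mean normalised height on a log2 scale (horizontal axis), with all 25442 regions tested in grey and the 42 regions of the NF-kB genes in colour. The coloured points lie within the grey cloud, and the widest changes are at low heights.

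A group-only region has no height in the other group, so the main fit gives no change for it. With absent peaks set at the lowest score, limma called none of these regions (adjusted p = 0.673 for each). That fit rests on a filled-in height for the other group. With peaks under a score of 5 left out, 3 of the 6 IL-4-only regions stayed IL-4-only, those of Nfkb1 and Tnfaip3. With peaks within 500 bp merged, 4 stayed, and the Nfkb2 and Nfkbiz regions joined their neighbours. Of the control-only regions, that of Rel alone stayed at a score of at least 5, while those of Nfkb1 and Nfkbiz stayed after merging at 500 bp.

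The letters under the regions were searched for 5 motifs on both strands. A STAT6-type palindrome, TTCNNNNGAA, stood in the 300-base window of 5 of the 6 IL-4-only regions (83.3%), against 34.4% of all IL-4-only and 9.0% of all regions. Within the regions themselves it stood in 4 of 6 (66.7%), against 30.9% and 7.22%. The Nfkb1 matches were TTCTCAGGAA at chr3:135683680-135683689 and TTCACCGGAA at chr3:135689194-135689203. In Tnfaip3 intron 1, TTCTACGGAA lay 11 bp from the centre of the region, which also held a pair of kB matches and the AP-1 motif TGACTCA. TTCAGAAGAA was the match of the Rel region. The 42 regions in all 4 libraries held the palindrome in 4 windows (9.52%, against 7.72% of all such regions) and within the region in 5 cases (11.9%, against 8.92%). These 5 went both ways. TTCCCTGGAA in Nfkb1 intron 5, TTCTGCAGAA in the Rel region at +8162 bp and TTCCATTGAA in the Nfkb1 region at +84177 bp had log2 changes of 1.36, 0.83 and 0.08. TTCTGAAGAA at the Tnfaip3 promoter and TTCAAATGAA in the Nfkbiz region at +74784 bp had −0.48 and −0.29. Of the 3 control-only regions, 1 (33.3%, against 4.56% of all control-only regions) held it in the 300-base window, that of Nfkbiz at +194432 bp, and 0 held it within the region itself.

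The kB consensus was found in 18 of the 96 windows (18.8%), beside 7.51% of all regions. In whole regions it stood in 16 (16.7%, against 6.67%). The match of the Nfkb1 promoter, GGAAATTCCC, was 4 bp from the centre of that region, and the Nfkbiz region at −295 bp held the same letters. Of the 7 genes with an entry in the RefSeq promoter table, 5 had a kB match in the 250 bases before a TSS (Nfkb2, Rel, Nfkbia, Nfkbie and Tnfaip3), in 7 of 10 promoters (70.0%), against 7.25% of all 32851 promoters. Among promoters with matches, IL-4 heights were lower at Rel and Tnfaip3, and normalised IL-4 heights were higher at the main region of Nfkb2. At Nfkbia and Nfkbie, IL-4 replicate 1 was below both control heights and IL-4 replicate 2 had no peak. AP-1 letters, TGANTCA, were in 24.0% of the 96 windows and 23.3% of all, STAT letters with the 3-base spacing, TTCNNNGAA, in 7.29% and 8.87%, and the PU.1 motif GAGGAAGT in 13.5% and 10.4%. TTCNNNNGAA and the AP-1 and STAT motifs read alike on both strands, and matches of different motifs may overlap. A match is a string of letters and not evidence of binding.

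For comparison, 41 other genes of the pathway (receptor adaptors, kinases, ubiquitin ligases and their regulators) were listed, and 40 of them had 211 regions. Of the 99 shared by all 4 libraries, 0 passed limma's adjusted threshold in either direction. At an unadjusted limma p under 0.05 there were 4 higher (4.04%, against 4.12% of all regions tested) and 5 lower (5.05%, against 4.15%). Their median log2 change was −0.001. The 4 lowest unadjusted p-values were all lower with IL-4 and all in the first intron of their gene. At Traf3, which encodes a brake on non-canonical signalling, the region chr12:111187121-111187393 had heights of 18.09 and 22.25 in the control and 3.80 and 7.78 in the IL-4 libraries, far apart (log2 change −1.67 ± 0.45 SE, limma adjusted p = 0.218). The others were Tab1 (log2 change −1.48 ± 0.55 SE), Ube2n (−1.27 ± 0.51) and Map3k14, which encodes the kinase NIK (−0.89 ± 0.38). IL-4-only regions numbered 3 of 211 (1.42%, against 2.53% of all regions) and control-only regions 8 (3.79%, against 4.33%). The latter included the promoter of the adaptor gene Myd88, chr9:119339939-119340146, with heights of 7.11 and 5.0.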

How the data were processed

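The authors aligned ATAC-seq reads to mm10 with BWA, called peaks in each library on its own with MACS2, removed blacklisted regions and annotated peaks against RefSeq with HOMER. The submitters' processing notes name BWA 0.7.10, SAMtools 0.1.19, HOMER 4.2 and MACS2 2.0.10. The handling of duplicate reads and of the Tn5 offset is not given in the sources used here. The deposited peak score was read as −log10 of the q-value, because the lowest was 1.3, close to −log10 of 0.05. The labels do not state this. The methods name a q of 0.01 or less, a score of at least 2, and no peak of the 10 genes scored under 2. The files hold no counts, so the depth per library and counting intervals are unknown.

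Autosomal, X and Y peaks were merged at 1 bp of overlap into 60710 regions, the number that bedtools 2.31.1 also gave. The score of a region in a library was that of its highest peak there. For regions that all 4 libraries shared, log2 heights were quantile-normalised and fitted with limma 3.58.1 in R 4.3.3 (moderated test with a variance trend, 2 control against 2 IL-4 libraries), with Benjamini-Hochberg adjustment over all 25442 regions and a threshold of 0.05. The fit was checked on simulated data with log2 changes larger than any it gave at these genes. The check therefore does not show whether changes of their size could be called. The libraries are separate biological replicates per the methods, with 2 per group. Each SE and p-value of limma is moderated, with a variance drawn partly from other regions of like height. They are thus not a region's own replicate spread, and they measure no spread beyond these libraries.

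RefSeq sequence of GRCm38.p6 was used for windows and motifs, since 93.6% of the 281 peaks of these genes had the same TSS distance as in the files within 2 bp, with differences of up to 51 bp. The genes, lists and comparisons were chosen with earlier results of these data known. Named for each gene were its highest region by mean height (an absent peak as 0) within 1 kb of the TSS, the highest farther out, each IL-4-only or control-only region and the lowest unadjusted p. Other regions described at Nfkb1, Nfkb2, Nfkbia, Nfkbiz and Tnfaip3 fall outside this rule. They do not stand for all regions of their gene. Alternatives were another centring, score minimums, log2 of height plus 1, no variance trend, a replicate block, imputed absent peaks, merging at 500 bp, a limit of 50 kb to the TSS and each library left out.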

Additional observations from a re-analysis of the deposited data

How the results depend on the processing

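No region of the NF-kB genes was called in either direction in any of the 11 alternative limma fits, the replicate block included (0 higher and 0 lower, lowest adjusted p 0.428 with the block and 0.42, with median centring, over all 11). Samples with the same replicate number did not deviate together (r = 0.0068 over 25442 regions), and no paired reading was made. The median log2 change of 0.08 became 0.38 with regions within 50 kb, −0.006 with scores of at least 5, and ran from 0.008 to 0.22 when 1 library was left out, the highest without control replicate 1. IL-4-only regions numbered 8 to 13 and control-only regions 6 to 11 with 1 library left out, since fewer libraries then have to hold or lack a peak. The highest counts were 13 without IL-4 replicate 2 and 11 without control replicate 1. The difference in peak number, 0.5, ran from −4.0 without IL-4 replicate 1 to 5.0 without IL-4 replicate 2, and was −1.0 with scores of at least 5. Some log2 changes turned sign, most of them near 0 but also those of −0.46 and −0.25 at Bcl3 and −0.27 at Nfkbiz. With 1 library left out, the Nfkb1 promoter ran from −0.47 to 0.42 (0.066 with absent peaks at the lowest score), Relb at +744 bp from −0.091 to 0.37, Nfkbia at +26159 bp from −0.15 to 0.035 (0.001 merged at 500 bp), Nfkbiz at +266747 bp from −0.76 to 0.19, and Bcl3 from −0.47 to 0.36 at −880 bp, −0.94 to 0.009 at −1519 bp and −0.62 to 0.13 at −8203 bp. The causes were not tested. Unknown depth limits every statement on an absent peak.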
